A study of Rattus norvegicus with 16 samples.

Results

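Tibialis anterior muscle of 9-month-old Dmd-mutant rats was compared with that of wild-type rats of the same age, both kept on the normal diet. The comparison uses 10 of the 16 libraries of the series, 6 from mutants (DMD_ND, replicates 3, 5, 6, 7, 9 and 11) and 4 from wild-type rats (WT_ND, replicates 1, 3, 4 and 9), and describes the 12119 of 31141 genes that reached 1 FPKM in at least 4 of the 16 libraries. FPKM is a read count divided by gene length and by a size for each library. Here that size matched a median-of-ratios scaling, which holds the typical gene level between libraries, rather than the total of reads. All rats have the Wistar-Imamichi background, and both groups ate the normal diet from weaning on. The labels give the mutant genotype as Dmd without naming the allele, and they give no sex. The other 6 libraries, from mutants on the MCTKD diet, enter only the shared estimate of the spread between libraries. The labels do not say whether each library is a separate animal. The p-values therefore describe only how much these libraries vary, and part of that spread may be technical.

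Dystrophin, the product of Dmd, ties the actin cytoskeleton of the muscle fibre to a membrane complex that grips the surrounding matrix. Without it the fibre membrane tears under load, and fibres go through rounds of breakdown and regrowth. Regrowing fibres pass through developmental stages in which they use other isoforms of contractile, metabolic and channel proteins than adult fibres do. Tibialis anterior is a mostly fast-twitch muscle, so its adult isoforms are those of fast glycolytic fibres.

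Dmd itself (ENSRNOG00000046366, chrX:47272331-49504207 of mRatBN7.2, plus strand) was read at 5.95, 11.9, 4.13 and 7.30 FPKM in WT_ND replicates 1, 3, 4 and 9, and at 1.37 to 1.98 FPKM (median 1.81) in the mutants. No mutant library reached the lowest wild-type value, and Dmd fell by 1.51 ± 0.21 (SE) on the log2 scale, with an adjusted p of 7.73e-06 by limma.

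Libraries held 17125100 to 24341900 assigned reads, with no detected difference between genotypes (exact two-sided permutation p = 0.4). In wild-type muscle the 10 most abundant genes took 40.1 to 47.4% of the summed FPKM, against 29.4 to 31.6% in mutants, and mitochondrially encoded genes took 19.7 to 25.1% of reads against 11.9 to 14.0%. Between 10070 and 10627 genes reached 1 FPKM in a wild-type library, and 11412 to 11675 in a mutant one. Each of these measures separated the groups without overlap (exact permutation p = 0.00476, the smallest that 210 relabellings can give; adjusted p = 0.00595 over 5 measures). WT_ND replicates 1 and 4 stood apart from replicates 3 and 9, with summed FPKM of 995390 and 949407 against 712116 and 623029, so abundant fibre genes appear below as pairs of high and low wild-type values. WT_ND replicate 9 was high for several genes of regeneration, which is given beside those genes.

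Markers of fast fibres were abundant in both groups: the 7 of 10 fast-fibre markers that were tested summed to 66673.5 to 124174 FPKM in wild-type libraries and to 28841.9 to 49505.7 FPKM in mutants. Of them 6 were lower in mutants and 1, Mylpf, was not called. The heart markers Nppa, Nppb, Myl7 and Tnni3 stayed under the filter, each with a mean below 1 FPKM in both groups. Of the other 2 on that list Myh6 was not called and Myl4, also an embryonic muscle form, rose, and the list's sum went from 13.9 to 18.3 FPKM up to 120 to 153 FPKM. Markers of interstitial cells moved the other way. All 9 tested markers of fibro-adipogenic progenitors, the matrix-making cells of muscle, were higher, their sum going from 114 to 240 FPKM up to 807 to 1032.28 FPKM. All 9 tested macrophage markers were higher too, from 18.1 to 47.1 FPKM up to 246 to 349 FPKM. In bulk RNA, fewer cells of a type and less RNA per cell cannot be told apart, and the part these cells had in the results below was not tested.

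Of the 12119 genes, 7967 differed between genotypes (65.7%; limma on log2(FPKM + 1), Benjamini-Hochberg adjusted p under 0.05, the threshold meant by called, rose and fell throughout). In mutants 3815 genes were higher (31.5%) and 4152 lower (34.3%), and at least 2-fold differences numbered 1690 higher (13.9%) and 1226 lower (10.1%). Fold values throughout are differences on the log2(FPKM + 1) scale turned back to folds, unless a floor or a ratio of means is named. For genes of low level in either group they are smaller than ratios of mean FPKM. The libraries of the 2 groups did not overlap for 6682 genes (55.1%). Direction followed the level of the gene. Among the 454 genes with a mean of 100 FPKM or more, 61.5% were lower and 18.7% higher, whereas among the 2714 genes below 2 FPKM 17.1% were lower and 45.4% higher. Both the filter and these means use all 16 libraries, of which only 4 are wild type. A scarce gene can therefore pass through mutant libraries alone, which favours rises among scarce genes. How much this adds to the 45.4% was not tested. The 30 calls among 34 mitochondrially encoded genes were all falls, while on chromosomes 1 to 20 and X between 25.1 and 37.3% of genes rose and between 26 and 41.1% fell.

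How libraries are scaled to each other decides how many genes count as lower. The deposited FPKM hold the typical gene level between libraries, and their median log2 fold change was -0.04. When every library was instead scaled to the same FPKM sum (TPM scaling), the median gene shifted up by 0.77, and the calls became 8575 higher (70.8%) and 721 lower (5.95%). Scaled to an equal sum over nuclear genes, they were 6380 higher (52.6%) and 1469 lower (12.1%). All 3815 genes called higher as deposited were also called higher under TPM scaling, 721 were lower under both, and 1172 switched from lower to higher. Medians of many gene groups are therefore given under both scalings, and a median under TPM scaling is to be read against 0.73, that of all genes. Counts of higher and lower genes are as deposited unless TPM scaling is named. For 7021 genes (57.9%) the whole 95% interval of the log2 fold change as deposited lay within 1 of 0, and for 2467 genes (20.4%) within 0.5 of 0. Within 1 of 0, a 2-fold change on the log2(FPKM + 1) scale lay outside the interval. For genes of low level a 2-fold change in FPKM itself can still lie inside it. These counts describe closeness to no change, and a large change with a narrow interval is not among them.

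**Figure D1:**
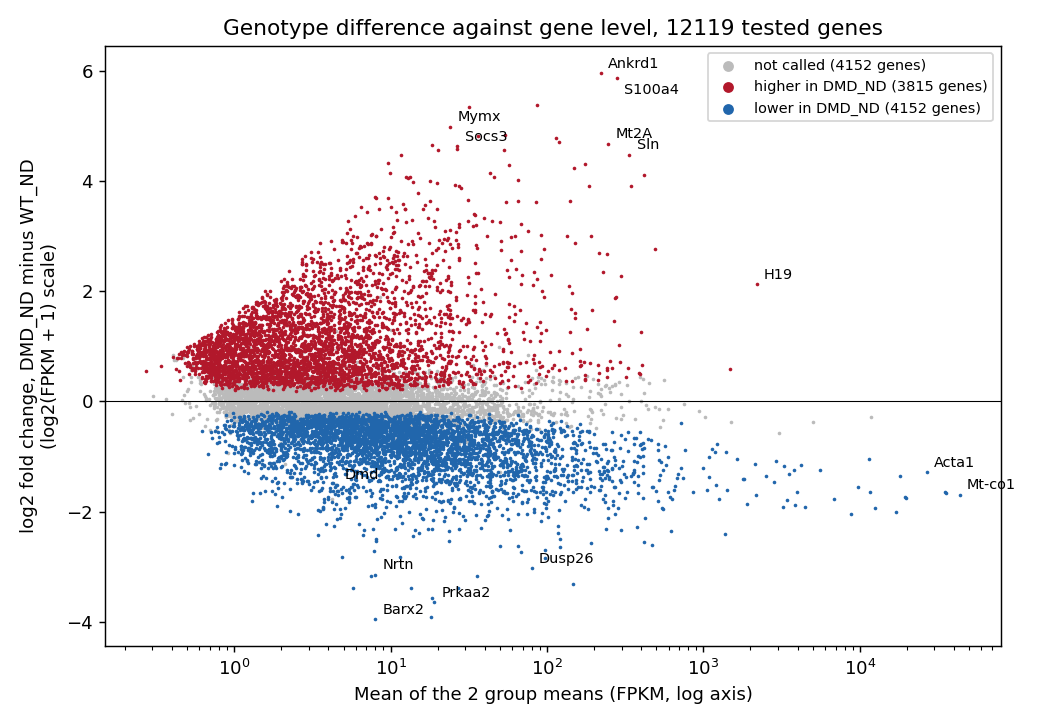
Each point is 1 of the 12119 tested genes, with the mean of both group means in FPKM on a log axis against the log2 fold change, DMD_ND minus WT_ND. Falls (blue) dominate at the right, where 61.5% of genes with a mean of 100 FPKM or more over all 16 libraries were lower. Rises (red) dominate at the left, where genes can pass the filter through mutant libraries alone.

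Many muscle proteins exist as an adult muscle form and as a form used by developing or slow fibres, by the heart or by other cells. The ratio of such a pair within a library does not depend on how libraries are scaled, so the shift of the median gene does not enter it. Of 55 such pairs listed, 41 had both forms among the tested genes. The ratio of muscle form to other form was lower in mutants in 35 pairs, higher in 1 and not called in 5 (exact permutation, adjusted over the 41 pairs). In 34 of the 35 the libraries did not overlap, and the median change of the log2 ratio over all 41 was -1.98. Of all tested genes taken singly, 55.1% did not overlap. In most pairs the muscle form was the more abundant in wild-type muscle. In some it was not, and there the name muscle form is loose. Smyd1 and Smyd2 averaged 104 and 177 FPKM in wild-type muscle, and Vdac1 and Vdac2 163 and 166 FPKM. Abundant genes mostly fell (61.5% at 100 FPKM or more) and scarce ones more often rose (45.4% below 2 FPKM). The part of that trend in the ratios was not tested. In 21 pairs the muscle form fell and the other form rose as separate genes.

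Contractile and calcium-store proteins were among the pairs that moved most. Tnnt3, fast troponin T, had 6401.75, 5139.12, 7110.74 and 4674.28 FPKM in wild-type muscle and 1996.46 to 3007.82 (median 2698.4) in mutants, while Tnnt2, the cardiac and embryonic form, went from 0.365 to 1.03 FPKM up to 7.52 to 14.4 (median 10.8). Tnnt3 alone was not called under TPM scaling (log2 -0.15, limma adjusted p = 0.227). The log2 ratio of the pair fell by 5.20 (exact permutation, adjusted p = 0.00574). For calsequestrin, the calcium buffer of the sarcoplasmic reticulum, Casq1 stood at 1936.99, 1116.17, 2051.59 and 1164.03 FPKM in wild-type libraries against 514 to 977 (median 870), a fall that changed sign under TPM scaling (log2 -0.91 and 0.10) and was not called without WT_ND replicate 1 (limma adjusted p = 0.0599) or 4 (0.0652). Casq2, the cardiac and slow form, rose from 3.58 to 6.35 FPKM to 56.6 to 72.5 FPKM (median 62.7), and the log2 ratio fell by 4.52. Among essential myosin light chains the Myl1 to Myl4 ratio was lower as well: Myl4, the embryonic and atrial form, averaged 15.1 FPKM in wild-type and 136 FPKM in mutant muscle. Acta1 to Actc1, the adult and foetal sarcomeric actins, followed with a median log2 ratio of 6.17 in mutants against 9.40, 9.06, 9.42 and 8.45.

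Energy enzymes shifted in the same direction. Ckm, the muscle creatine kinase, had 27004.9, 13043.7, 26291.7 and 13501.5 FPKM in wild-type muscle and 2941.49 to 6677.39 (median 5387.35) in mutants. Ckb, the brain-type enzyme, went the other way, from 5.40 to 13.6 FPKM up to 33.6 to 57.4 (median 34.6), so that the log2 ratio fell by 4.22 (exact permutation, adjusted p = 0.00574). Prkaa2 and Prkaa1 encode the alternative catalytic subunits of the AMP-activated kinase, the cell's energy sensor. Prkaa2 (chr5:119813226-119879543 of mRatBN7.2) dropped from 34.3, 51.0, 18.3 and 41.1 FPKM to 0.910 to 3.57 (median 1.58), while Prkaa1 rose from 1.82 to 3.92 up to 4.65 to 5.61 FPKM. The muscle subunit was thus the more abundant in every wild-type library and the less abundant in every mutant one, and the log2 ratio fell by 5.01. Pfkm to Pfkp, 2 phosphofructokinases, had a log2 ratio 3.84 lower, and the glycogen phosphorylases Pygm and Pygb moved in the same direction.

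Housekeeping machinery was included. Rpl3l (chr10:13753886-13764457) is a muscle-restricted copy of the ribosomal protein L3 gene Rpl3 (chr7:111621610-111636468), and the 2 proteins occupy the same place in the ribosome. Rpl3l had 547, 321, 559 and 322 FPKM in wild-type libraries and 115 to 182 (median 155) in mutants. Rpl3 had 24.7, 20.1, 29.7 and 31.2 FPKM against 116 to 174 (median 131), a log2 rise of 2.35 ± 0.15 (SE) with an adjusted p of 1.67e-09 by limma. Their log2 ratio went from 4.46, 3.99, 4.23 and 3.36 to between -0.60 and 0.59, so that mutants carried the pair at similar levels. The alpha-tubulins Tuba8 and Tuba1b crossed in the same manner, at log2 ratios of 3.72, 3.34, 3.71 and 3.14 in wild-type libraries and -1.56 to -0.19 in mutants.

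The exceptions are few. Ldha to Ldhb, the lactate dehydrogenase subunits, was the only ratio called higher, by 0.75 on the log2 scale (exact permutation p = 0.0286, adjusted p = 0.0335), and its libraries overlapped. Both genes were lower as deposited, with log2 fold changes of -0.91 for Ldha and -1.65 for Ldhb, and the ratio lost its call without WT_ND replicate 1 (adjusted p = 0.0837) or WT_ND replicate 3 (adjusted p = 0.0792). Tnnc2 to Tnnc1, the fast and slow troponin C, was called lower (log2 -0.86, adjusted p = 0.0488) but its libraries overlapped. That call was lost when any of WT_ND replicates 1, 4 and 9 or DMD_ND replicates 3, 5, 6, 7 and 9 was left out, with adjusted p between 0.0542 and 0.145. The pairs Ezh1 to Ezh2, Mef2d to Mef2c, Prkab2 to Prkab1, Smyd1 to Smyd2 and Aldoa to Aldoc were not called, with adjusted p between 0.132 and 0.752. The row named Aldoa holds only 0.697 FPKM on average in mutants, so this last pair does not measure the main muscle aldolase. Some of the other forms, such as Ckb and Tuba1b, are also made by cells outside the fibre. Markers of interstitial cells rose as given above, and their part in the ratios was not tested.

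**Figure D2:**
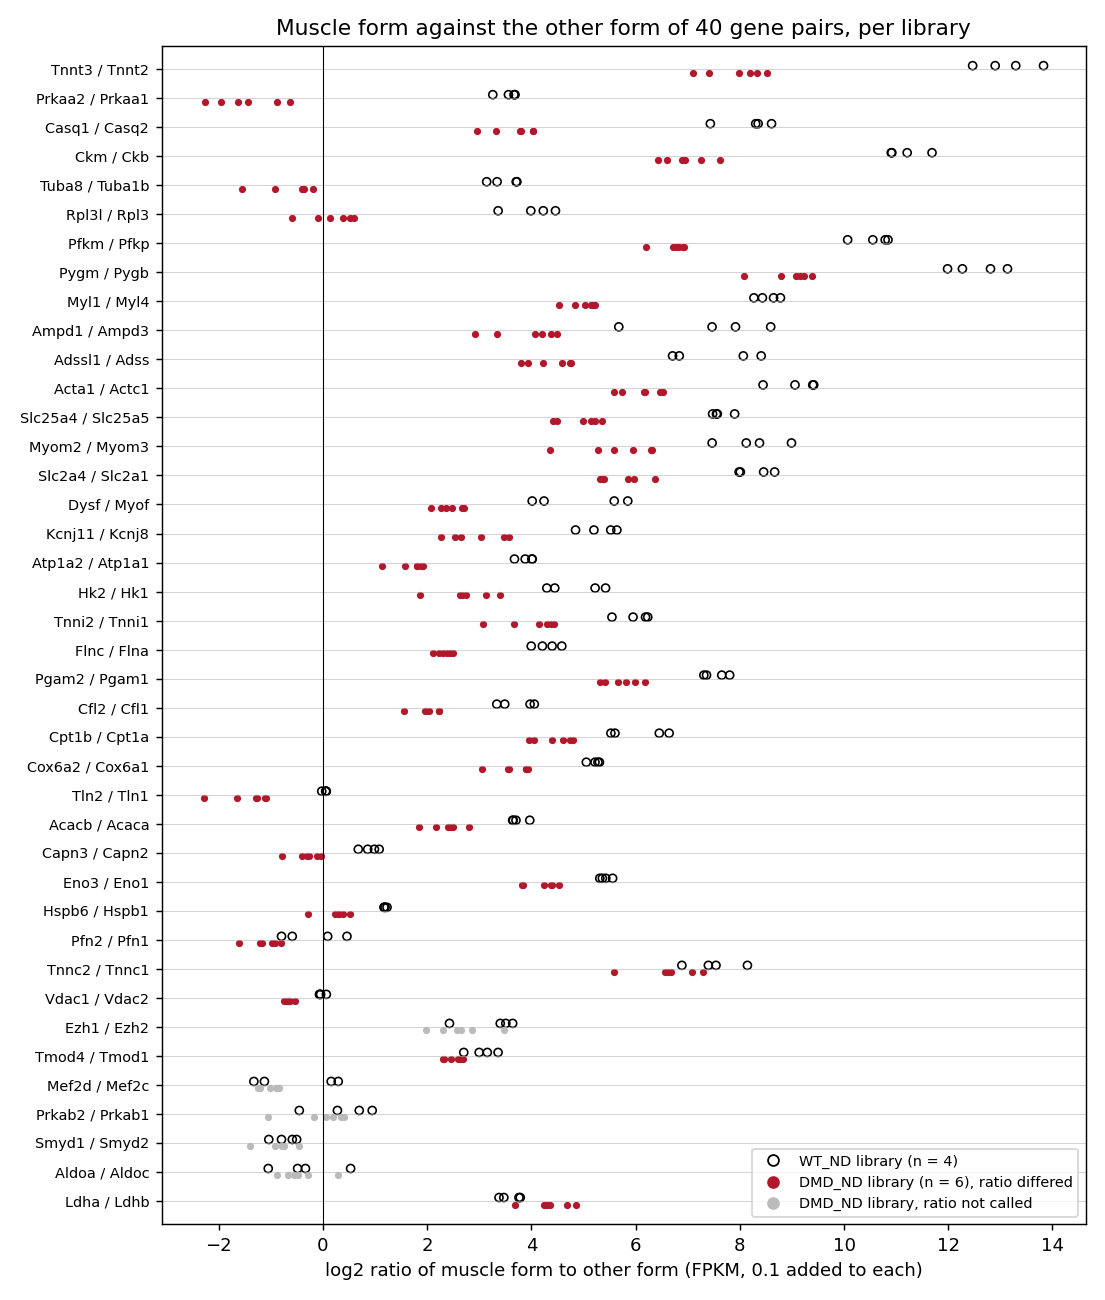
For 40 of the 41 gene pairs the log2 ratio of muscle form to other form is plotted for every library, wild type as open circles (n = 4) and mutants as filled circles (n = 6, red where the ratio differed and grey where it was not called). Mutant points lie left of wild-type points in 33 of these pairs without overlap, and only Ldha to Ldhb was called higher, with overlapping libraries. Of all tested genes taken singly, 55.1% did not overlap.

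Promoter sequences are shown for 3 genes among the largest changes that carry a motif searched for: Mymx and Ctxn3, which rose, and Myl3, which fell. They come from RefSeq in the build GRCr8 and reach from upstream of each start to just within the transcript. Capitals mark CAGCTG, the E-box bound by myogenic factors, or GGAATG and its reverse complement CATTCC, the M-CAT element bound by TEAD factors. They were chosen after the matches were seen. The other motif searched was AAGGTCA, a site of the oestrogen-related receptors, and each motif was looked for on both strands.
Mymx promoter, chr9:22894274-22894573, plus strand: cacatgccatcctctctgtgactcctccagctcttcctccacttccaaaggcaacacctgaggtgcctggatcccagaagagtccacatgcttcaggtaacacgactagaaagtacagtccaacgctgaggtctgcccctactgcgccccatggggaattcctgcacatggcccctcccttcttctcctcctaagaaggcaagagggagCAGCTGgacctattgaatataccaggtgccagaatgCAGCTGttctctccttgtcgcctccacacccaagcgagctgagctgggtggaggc
Ctxn3 promoter, chr18:53129255-53129554, plus strand: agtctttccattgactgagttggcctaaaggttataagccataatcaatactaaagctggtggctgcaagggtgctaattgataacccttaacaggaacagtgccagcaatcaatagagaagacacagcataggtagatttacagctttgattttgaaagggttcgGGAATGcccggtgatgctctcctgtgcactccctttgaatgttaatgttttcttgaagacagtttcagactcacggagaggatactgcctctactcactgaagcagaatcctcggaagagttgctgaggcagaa
Myl3 promoter, chr8:119616844-119617143, plus strand: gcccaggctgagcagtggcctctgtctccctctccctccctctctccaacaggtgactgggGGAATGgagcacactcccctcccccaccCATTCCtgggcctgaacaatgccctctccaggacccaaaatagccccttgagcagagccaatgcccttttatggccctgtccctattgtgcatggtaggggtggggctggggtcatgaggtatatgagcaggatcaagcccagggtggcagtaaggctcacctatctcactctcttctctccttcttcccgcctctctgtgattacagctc

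Mymx, a small membrane protein that lets myoblasts fuse, had 0, 0, 0.0961 and 2.51 FPKM in WT_ND replicates 1, 3, 4 and 9 and 27.3 to 85.3 FPKM (median 40.1) in mutants (log2 4.99 ± 0.36 SE, limma adjusted p = 5.28e-09). Its promoter holds CAGCTG starting at positions -41 and -5 from the start site. Ctxn3, which encodes cortexin 3, a small membrane protein, had 0.207, 1.88, 0.289 and 0.279 FPKM against 46.8 to 80.8 (median 64.9), with GGAATG at position -84. Myl3, a ventricular and slow-fibre myosin light chain, fell from 968, 602, 897 and 405 FPKM to 94.3 to 140 FPKM (median 110), and its promoter holds M-CAT matches at -189 and -161. These matches are descriptions of letters in a window. CAGCTG occurred in 4 of the 13 matched promoters of the 20 largest rises (30.8%), in 2 of 16 for the 20 largest falls (12.5%) and in 16.3% of the 8403 matched promoters of tested genes. GGAATG occurred in 2 of 13 (15.4%), 1 of 16 (6.25%) and 11.1%. AAGGTCA was in 0 of 13 rises, 0 of 16 falls and 2.83% of tested genes.

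The 20 largest rises held proteins of several kinds. Socs3, a feedback inhibitor of cytokine receptors, had 0.792, 0.606, 0.631 and 0.902 FPKM in wild-type libraries and 19.4 to 147 (median 38.6) in mutants (log2 4.63 ± 0.48 SE, limma adjusted p = 2.83e-07). DMD_ND replicate 7 supplied the highest value, and the lowest mutant value was still far above all 4 wild-type ones. Mt2A, a metal-binding metallothionein, had 8.18, 12.2, 26.6 and 23.7 FPKM against 226 to 847 (median 396). Cilp, a matrix protein of cartilage and injured tissue, went from 0.893 to 1.48 FPKM up to 28.2 to 68.7 (median 55.0), and Mfap4, a microfibril protein, from 2.33 to 5.20 up to 57.5 to 112 (median 80.7). Rrad, a small GTPase that restrains calcium channels, and Gpnmb, a glycoprotein of phagocytes, rose in every mutant library over the highest wild-type value. That value was WT_ND replicate 9 for both, at 34.8 FPKM for Rrad and 23.7 FPKM for Gpnmb, whereas the other wild-type libraries lay at or below 4.12 and 2.23 FPKM.

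Each of the falls named next was lower under TPM scaling too. Barx2 (chr8:30251132-30319013), a homeobox factor of muscle progenitors, had 21, 8.52, 21.4 and 12.9 FPKM in wild-type muscle and 0 to 0.0930 FPKM (median 0.0168) in mutants (log2 -3.95 ± 0.19 SE, limma adjusted p = 5.3e-11). Aqp4, the water channel of the fast-fibre membrane that sits in the dystrophin complex, had 30.6, 49.7, 24.8 and 34.4 FPKM against 0.564 to 2.18 (median 1.29). Unc5a, a netrin receptor, had 15.9, 7.59, 12.9 and 9.26 FPKM against 0.0465 to 0.258 (median 0.142). All 6 mutant libraries lay below every wild-type one for these 3 genes.

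Nrtn, the nerve growth factor neurturin, went from 21.7, 9.80, 22.8 and 6.97 FPKM to 0.320 to 0.889 (median 0.693), and Prima1, the membrane anchor of acetylcholinesterase, from 9.84, 9.29, 16.6 and 21.3 to 0.413 to 0.852 (median 0.606). Dusp26, a dual-specificity phosphatase, had 180, 115, 162 and 114 FPKM against 10.3 to 20.8 (median 19.9; log2 -3.03 ± 0.27 SE, limma adjusted p = 6.5e-08). Rhou, an atypical small GTPase, fell 10.4-fold on the log2(FPKM + 1) scale. Its range went from 19.5 to 33.8 FPKM down to 1.18 to 2.07 FPKM, and its mean from 25.5 to 1.52 FPKM. Cacna2d1, an auxiliary subunit of the calcium channel that triggers contraction, had 44.1, 74.4, 23.8 and 59.0 FPKM against 2.16 to 6.92 (median 3.01). Ppp1r1a, an inhibitor of protein phosphatase 1, fell 6.62-fold, Mettl11b, an N-terminal methyltransferase, 7.05-fold, and Chchd10, a mitochondrial protein linked to motor neuron disease, 6.10-fold.

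**Figure D3:**
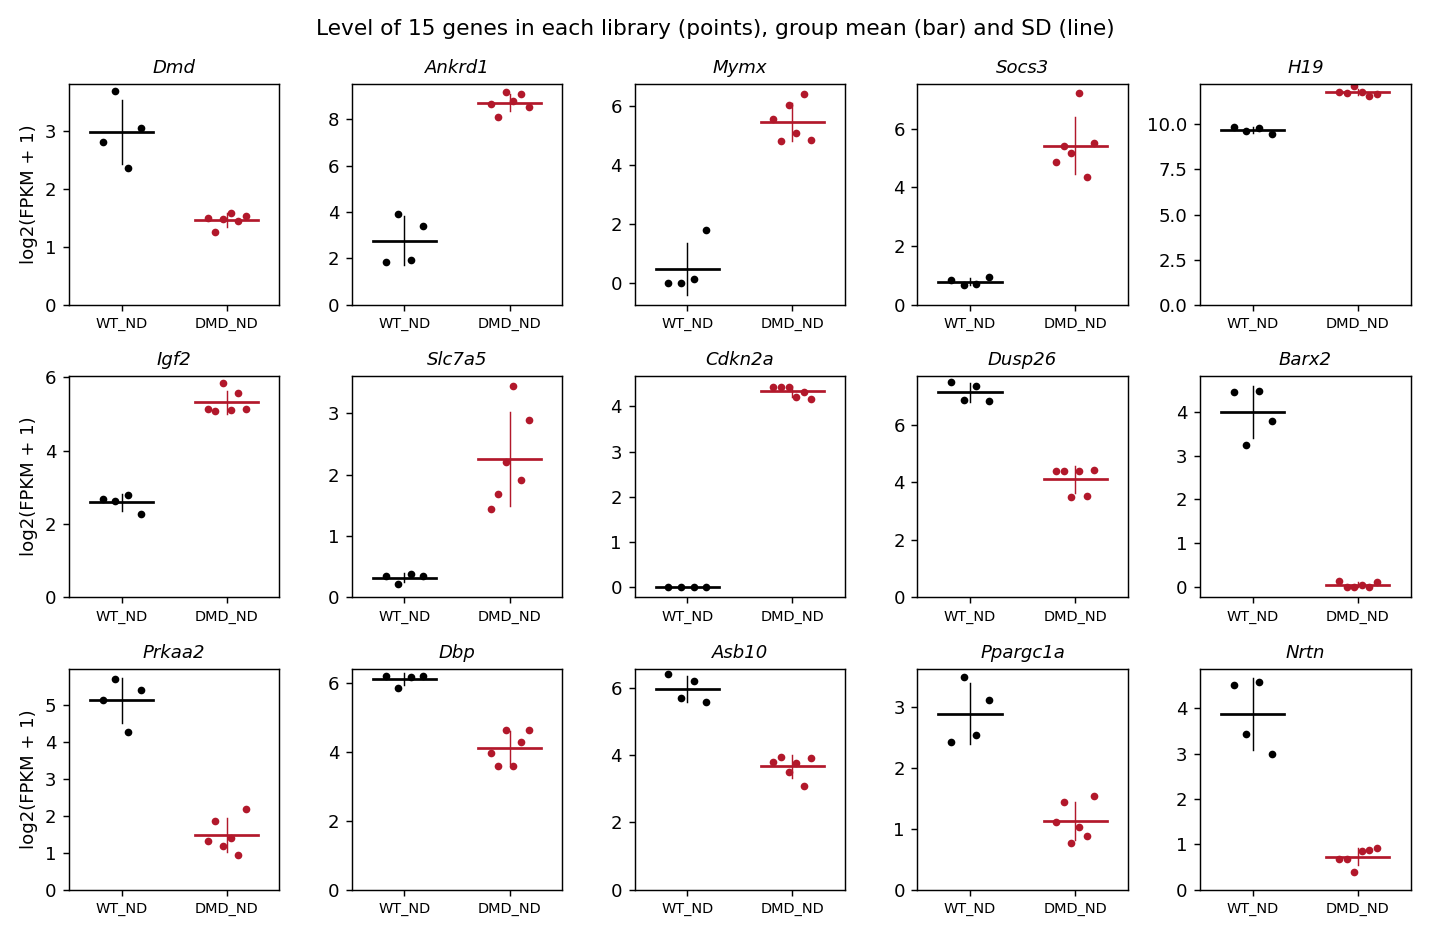
The level of 15 genes is plotted as log2(FPKM + 1) for each wild-type (black, n = 4) and mutant (red, n = 6) library, with the group mean as a bar and the SD as a line. In every panel the 2 groups are apart, and the single high wild-type point of Mymx is WT_ND replicate 9. The 15 genes were chosen with their values known, and of all tested genes 55.1% did not overlap.

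A small set of genes was nearly silent in wild-type muscle. With at most 3 reads over all 4 wild-type libraries and at least 1 FPKM in every mutant library, 33 genes met the rule. The reverse rule allowed at most 3 reads over all mutant libraries and asked for 1 FPKM in every wild-type one. Only 1 unnamed gene met that reverse rule. Mutant libraries outnumber wild-type ones, so the rules are not equally strict, and no one-way gain of genes can be read from these counts. Cdkn2a (chr5:103984949-104003149), which encodes the cell-cycle inhibitors p16 and ARF, had 0 reads in all 4 wild-type libraries and 17.0 to 20.5 FPKM (median 19.7) in mutants, at least 102-fold higher than 3 reads in each wild-type library would give. Fgf23, the phosphate-regulating hormone usually made by bone cells, had 0 wild-type reads and 1.67 to 13.1 FPKM (median 2.41) in mutants, at least 51.4-fold above that floor, with the top value in DMD_ND replicate 7. Tac4, a tachykinin peptide gene, had 0 wild-type reads and 2.73 to 9.71 FPKM (median 4.69), at least 35.4-fold above the floor.

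For genes with 1 to 3 wild-type reads the ratio of means carries a wide counting interval. Sohlh2, a transcription factor known from germ cells, had 1 wild-type read and 3.38 to 10.2 FPKM (median 5.09) in mutants, a ratio of 965 (95% Poisson interval 173 to 38124.4, counting error of the wild-type reads only). Podnl1, a matrix proteoglycan, had 3 reads and 3.40 to 8.01 FPKM (ratio 228, interval 77.9 to 1103.93). Lrrc15, a marker of activated fibroblasts, had 3 reads and 1.67 to 3.02 FPKM (ratio 272, interval 93.1 to 1319.45). Krt18, a keratin of simple epithelia, had 2 reads and 2.30 to 7.83 FPKM (ratio 140, interval 38.8 to 1158.36). Short RNA genes such as Snord123 and Mir142 also met the rule, but for the short genes Gm24357, Snora64, Snord87 and Mir3554 the mutant mean lay under the level that 3 reads per library give, so no fold is given.

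Counts for the lists that follow are to be read against all tested genes, of which 31.5% were higher and 34.3% lower; a list near those shares does not stand apart. Of 89 tested rows of cytosolic ribosomal protein genes 37 were higher, 51 not called and 1, Rpl3l, lower, with a median log2 fold change of 0.39 as deposited and 1.37 under TPM scaling. Several rows are near-identical copies, between which the counting could split reads. Rps27a had 88.4, 105, 117 and 93.7 FPKM in wild-type libraries and 176 to 373 (median 259) in mutants. Of 69 mitochondrial ribosomal protein genes 61 were lower and 0 higher, with a median of -0.74 that turned to 0.19 under TPM scaling. Mrpl38 and Mrpl16, of the large subunit, and Mrps18b, of the small one, fell with log2 fold changes of -1.47, -1.37 and -1.42, and were below 0 under both scalings. Translation factors (3 of 31 higher, 18 lower; median -0.45 and 0.47) and aminoacyl-tRNA synthetases, which load amino acids onto tRNA (0 of 20 higher, 14 lower; median -0.48 and 0.49), changed sign with the scaling. Against that background Eif4a1, the helicase that opens messenger RNA for the ribosome, rose from 43.7, 42.2, 59.0 and 53.2 FPKM to 87.5 to 126 (median 106).

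Among genes of folding and translocation in the endoplasmic reticulum 13 of 31 rose and 7 fell (median 0.15 and 1.14 under TPM scaling). Sec61a1, the channel through which new proteins enter, had 4.13, 4.48, 6.10 and 4.80 FPKM against 14.5 to 18.6 (median 16.2), and the disulphide isomerases Pdia4 and Pdia3 rose 2.58-fold and 2.36-fold. Vesicle-coat genes gave 9 higher (28.1%) and 10 lower (31.2%) of 32, near the shares over all genes. Sec24d, a coat subunit needed for large collagen cargo, rose from 0.784 to 1.20 FPKM up to 3.83 to 5.10, whereas Sar1b, a GTPase that starts coat assembly, fell from 484, 449, 554 and 460 FPKM to 94.5 to 172 (median 162). All 20 fibrillar matrix genes, the cargo itself, were higher, with a median of 2.95 and 3.89 under TPM scaling. Fibro-adipogenic progenitor markers rose beside these genes (9 of 9 tested), and their part was not tested.

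Of the ubiquitin ligases and Kelch and ASB adaptors that sort muscle proteins for breakdown, 23 of 31 fell and 1 rose, with a median of -0.88 as deposited and 0.01 under TPM scaling. Asb10 had 83.4, 51.0, 72.1 and 46.7 FPKM against 7.38 to 14.4 (median 12.7), Klhl33 had 52.2, 63.3, 37.7 and 73.9 against 6.07 to 17.6 (median 13.9), and Asb16 fell 3.65-fold. All 3 stayed lower under TPM scaling. The member that rose was Cish, an inhibitor of cytokine signalling that recruits ubiquitin ligases, from 2.02 to 8.23 FPKM to 6.02 to 31.2 FPKM with overlapping libraries (limma adjusted p = 0.0467). That call was lost when DMD_ND replicate 5, 6, 7 or 11 or WT_ND replicate 3, 4 or 9 was left out (limma adjusted p between 0.0552 and 0.156). Fbxo32, known as atrogin-1 and induced in wasting muscle, fell with a log2 fold change of -1.12, and Trim63, known as MuRF1, was not called at -0.45. These 2 genes were named after their values were seen.

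Proteasome subunits showed a smaller, uniform shift, with 19 of 30 lower and 0 higher, but the median of -0.49 became 0.50 under TPM scaling, where 27 were called higher. Autophagy genes gave 17 of 27 lower and 1 higher (median -0.37 and 0.54). Pink1, the kinase that marks damaged mitochondria for removal, fell from 1199.5, 731, 1151.57 and 710 FPKM to 213 to 308 (median 288), and was lower under both scalings. Among cytosolic chaperones 15 of 30 fell and 2 rose (median -0.36 and 0.62); Unc45b, which folds myosin, fell 2.28-fold as deposited and was not called under TPM scaling (log2 -0.20, limma adjusted p = 0.0852).

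The cytoskeleton outside the sarcomere held mostly risers. Of 38 tested genes of non-sarcomeric actin remodelling 30 rose and 3 fell (median 1.14 and 1.96 under TPM scaling). Gsn, gelsolin, which severs actin filaments, had 73.5, 136, 135 and 149 FPKM against 460 to 1232.44 (median 867). The 3 falls were Tln2, Flnc and Pfn2, which belong to forms used in muscle or nerve, and of these Flnc and Pfn2 turned above 0 under TPM scaling, Tln2 was not called there (log2 -0.32, limma adjusted p = 0.102), and Pfn2 was not called without WT_ND replicate 3 (limma adjusted p = 0.0508). Of 21 tubulins and microtubule proteins 8 were higher and 10 lower. Tubb6 had 3.18, 2.49, 2.88 and 15.1 FPKM in WT_ND replicates 1, 3, 4 and 9 and 40.6 to 61.3 (median 45.6) in mutants, and Map1a, a microtubule-binding protein, rose 5.58-fold. Tuba4a fell from 521, 246, 550 and 252 FPKM to 68.8 to 120 (median 102), and Tuba8 fell 4.28-fold, both also lower under TPM scaling. Fibro-adipogenic and macrophage markers (9 of 9 tested each) rose beside the actin genes, and their part was not tested.

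Genes known as targets of YAP and TEAD, which respond to stretch and stiffness, rose in 14 of 19 cases and fell in 2 (median 0.64 and 1.36 under TPM scaling). Ankrd1 led them with 2.55, 13.9, 2.80 and 9.61 FPKM in wild-type libraries and 278 to 576 (median 421) in mutants. Ccn2, a matrix-bound growth factor also called CTGF, had 7.96, 8.10, 6.03 and 12.7 FPKM against 70.0 to 132 (median 82.6), and Ccdc80 rose 12.4-fold. Crim1 and Ptpn14 fell as deposited, but neither was called under TPM scaling (log2 -0.02 and 0.03, limma adjusted p = 0.963 and 0.875).

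Ion channels and pumps of the fibre membrane were mostly lower, with 25 of 42 falling and 10 rising (median -0.83 and 0.13). Besides Aqp4 and Cacna2d1, Atp1b2, a sodium pump subunit, fell from 210, 110, 216 and 139 FPKM to 13.2 to 34.1 (median 27.8). Scn4a, the sodium channel of adult muscle, had 72.5, 60.5, 59.7 and 62.6 FPKM in WT_ND replicates 1, 3, 4 and 9, and 14.7 to 25.1 FPKM (median 22.5) in mutants. Atp1b4 and Fxyd5 were among the risers. Atp1b4, a pump-related protein of muscle, had 0.296, 1.61, 0.206 and 0.522 FPKM against 6.06 to 11.5 (median 8.57). Fxyd5, a pump regulator found outside muscle, rose 4.20-fold.

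Amino acid transporters moved in both directions. Slc7a5, the carrier of large neutral amino acids, had 0.264, 0.155, 0.295 and 0.267 FPKM against 1.72 to 9.91 (median 3.18), and Slc1a5, which carries glutamine, had 1.07, 1.53, 1.11 and 0.957 against 4.45 to 12.3 (median 8.88). Slc38a4 fell from 61.3, 38.0, 56.8 and 41.7 FPKM to 6.34 to 19.9 (median 14.8), Slc38a3 3.36-fold and Slc7a2, a carrier of cationic amino acids, 3.73-fold. The transporter list as a whole gave 11 higher and 7 lower of 24 (median 0.27 and 0.91). In serine and one-carbon metabolism 7 of 14 rose and 5 fell. Phgdh, the first enzyme of serine synthesis, had 0.0484, 0.679, 0.231 and 0.521 FPKM against 1.21 to 2.99 (median 2.35), and the mitochondrial folate enzyme Aldh1l2 had 0.0232 to 0.125 FPKM against 1.29 to 2.48 (median 2.17). The cytosolic counterpart Aldh1l1 fell 2.09-fold as deposited and was not called under TPM scaling (log2 -0.09, limma adjusted p = 0.385).

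Atf4 encodes the transcription factor of the integrated stress response, which is known to switch on genes of amino acid uptake and synthesis. Atf4 had 547, 321, 587 and 328 FPKM in wild-type libraries and 137 to 223 (median 167) in mutants (log2 -1.31 ± 0.20 SE, limma adjusted p = 1.67e-05; -0.30 under TPM scaling). Aldh18a1, which makes proline precursors, rose from 0.510 to 0.745 FPKM to 3.40 to 5.54 (median 4.37), while Chac1, which degrades glutathione, fell 2.63-fold as deposited and was not called under TPM scaling (limma adjusted p = 0.15). The stress-response list gave 5 higher and 6 lower of 14.

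Branched-chain amino acid breakdown, a mitochondrial pathway, fell as a whole: all 20 tested genes were lower, with a median of -1.33 and of -0.34 under TPM scaling, where 10 stayed called lower and 0 were higher. Ivd had 127, 97.9, 146 and 95.8 FPKM against 25.6 to 34.7 (median 32.7), Ppm1k, the phosphatase that switches the pathway on, had 4.95, 11.7, 5.05 and 7.59 against 1.02 to 2.17 (median 1.43), and Aldh6a1 fell 2.99-fold. Genes of mitochondrial import, shape and DNA upkeep fell in 29 of 33 cases with 0 higher (median -0.92 and 0.05). Opa1, which fuses the inner membrane, went from 35.9, 32.7, 31.2 and 30.0 FPKM to 7.37 to 11.6 (median 9.72). Mcu, the pore for calcium entry, was among 3 of 12 genes of mitochondrial calcium handling that rose, from 9.18 to 10.1 FPKM to 13.3 to 15.6, and Slc8b1, the exchanger for calcium exit, rose 3.46-fold, while 7 fell, Vdac1 by a log2 fold change of -1.62.

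Sphingolipid genes leaned up, with 16 of 22 higher and 3 lower (median 0.73 and 1.35); S1pr2, a receptor for sphingosine-1-phosphate, had 0.318, 0.845, 0.722 and 0.461 FPKM against 3.38 to 4.52 (median 3.60). Cholesterol synthesis (8 of 20 higher, 6 lower) and iron and haem handling (7 and 7 of 22, 31.8% each) lay near the shares over all genes. The cholesterol genes that fell included Fdft1, which makes squalene, at 3.04-fold. Glutathione and peroxide genes gave 11 higher and 13 lower of 31, with Gpx8 rising from 1.22, 2.63, 2.92 and 2.77 FPKM to 14.7 to 21.9 (median 15.9) and mitochondrial Sod2 falling from 199, 213, 157 and 182 to 47.1 to 72.0 (median 58.8). Among iron and haem genes Hmox1, which degrades haem, and the ferritin gene Ftl1 rose 5.88-fold and 3.74-fold, while Alas1 and Fech, which build haem, fell 3.03-fold and 2.26-fold. Of the falls named in these sentences Fech was not called under TPM scaling (log2 -0.19, limma adjusted p = 0.0582), and the others were called lower there too.

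Purine genes moved in both directions. Of 29 purine and pyrimidine genes 12 rose and 10 fell. Adssl1, the muscle enzyme of the purine nucleotide cycle, had 1150.04, 647, 1048.73 and 680 FPKM against 147 to 260 (median 238), and Nt5c1a, which cuts AMP, had 43.6 to 49.3 FPKM against 4.09 to 14.2 (median 13.0). Ampd3, Xdh and Pnp rose; Ampd3, the AMP deaminase of non-muscle cells, had 1.36, 1.38, 0.941 and 5.74 FPKM in WT_ND replicates 1, 3, 4 and 9 against 7.32 to 12.7 (median 9.86), and Xdh, which makes uric acid, rose 2.90-fold. Insulin and mTOR signalling gave 3 of 33 higher and 19 lower (median -0.45 and 0.48), with Insr, the insulin receptor, going from 5.17, 6.71, 4.36 and 5.05 FPKM to 0.918 to 1.93 (median 1.58) and Tbc1d4, which controls glucose transporter traffic, falling 3.51-fold. The remaining metabolic lists were small or mixed: NAD metabolism gave 3 higher and 11 lower of 18 (median -0.43 and 0.38), polyamine metabolism 3 and 5 of 11, and pentose phosphate genes 1 and 4 of 10.

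**Figure D4:**
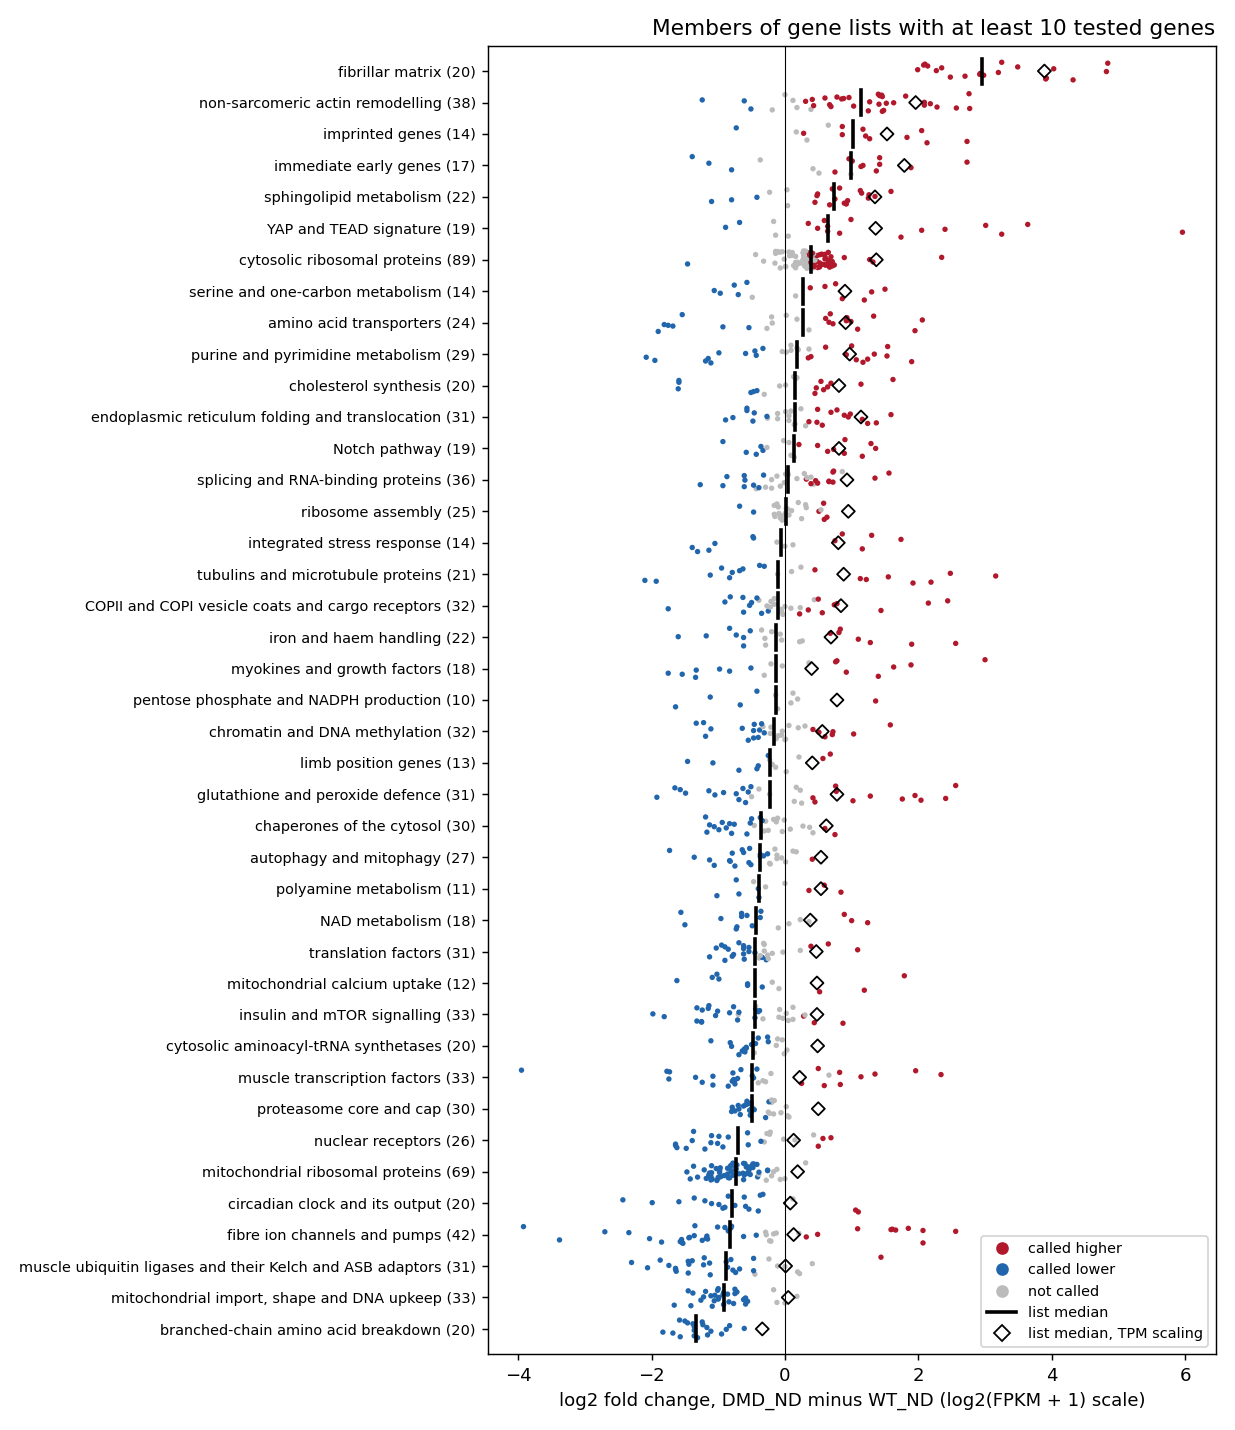
Each row is a gene list with at least 10 tested genes (number in brackets), each dot the log2 fold change of a member, the bar the list median and the diamond the median under TPM scaling. Lists at the top, from fibrillar matrix down to cytosolic ribosomal proteins, have medians above 0 under both scalings. So do lists with smaller deposited medians above 0, such as ribosome assembly (0.02 and 0.95). Branched-chain amino acid breakdown is the only list drawn whose median is below 0 under both. TPM scaling moved the median of all genes from -0.04 to 0.73, so diamonds are to be read against 0.73, not 0.

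The circadian clock runs on BMAL1, encoded by Arntl, and its partners CLOCK and NPAS2, which switch on repressors and output factors. Of 20 tested clock genes 17 were lower, Clock among them, and 2, Arntl and Npas2, were higher (median -0.80 and 0.08 under TPM scaling). Arntl rose from 2.89, 2.11, 2.53 and 1.47 FPKM to 3.31 to 8.22 (median 6.10). The output factors Dbp and Tef and the repressor Ciart fell: Dbp had 72.7, 56.5, 72.0 and 72.7 FPKM against 11 to 23.9 (median 16.7), Tef fell 3.01-fold and Ciart 5.41-fold, all 3 below 0 under TPM scaling. The hour at which muscles were taken is not in the labels, and its part was not tested.

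Regulators of fibre identity were mostly lower. Of 33 muscle transcription factors 19 fell and 9 rose (median -0.49 and 0.22). Besides Barx2, Ppargc1a, the coactivator that drives mitochondrial genes, fell from 4.38, 10.3, 4.84 and 7.66 FPKM to 0.698 to 1.91 (median 1.10), and Sox6, which represses slow-fibre genes, from 7.25 to 11.3 FPKM to 1.73 to 3.05. Risers were Myog, a factor of myoblast differentiation, at 4.96, 8.06, 11.2 and 23.6 FPKM in WT_ND replicates 1, 3, 4 and 9 and 37.8 to 80.7 (median 52.1) in mutants, Runx1, which follows loss of nerve contact, at 3.88-fold, and Myf5 at 2.54-fold. Nuclear receptors gave 16 of 26 lower and 3 higher (median -0.71 and 0.13), with Ppara, Rxra and Rxrg each falling 3.07-fold to 3.11-fold and staying lower under TPM scaling.

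Across all 658 tested genes that the deposited table assigns to a transcription factor family, 164 (24.9%) rose and 245 (37.2%) fell, against 31.5% and 34.3% of all genes. The 50 basic helix-loop-helix genes leaned up (24 higher, 13 lower, median 0.43 and 1.1 under TPM scaling). As deposited the 223 C2H2 zinc finger genes leaned down (40 higher, 85 lower), with a median of -0.16 against -0.04 for all genes. Their median under TPM scaling was 0.48, above 0 but below the 0.73 of all genes. Immediate early genes, induced within minutes of a stimulus, gave 10 higher and 3 lower of 17 (median 0.99 and 1.79). Myc had 0.742, 1.30, 1.99 and 1.89 FPKM against 8.97 to 29.1 (median 12.7), and Nr4a1 fell 2.62-fold with overlapping libraries, a fall not called under TPM scaling (limma adjusted p = 0.12). Of 32 chromatin genes 7 were higher and 13 lower. Dnmt3a, a DNA methyltransferase not called under TPM scaling (limma adjusted p = 0.0834), fell from 5.41 to 7.18 FPKM to 0.931 to 3.57 (median 2.49), and Hdac1 rose 2.04-fold. Limb position genes, where 15 of 28 in the table were under the filter, gave 2 higher and 6 lower of 13, with Hoxc10 falling 2.76-fold.

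Imprinted genes, expressed from 1 parental copy and active in foetal growth, rose in 10 of 14 cases and fell in 1 (median 1.02 and 1.53 under TPM scaling). The neighbours H19 and Igf2 on chromosome 1 moved together. H19, a non-coding RNA, had 908, 781, 878 and 702 FPKM against 3098.65 to 4466.39 (median 3499.23), a gain in FPKM among the 8 largest of any named gene. Igf2, a foetal growth factor, had 5.47, 5.16, 5.92 and 3.79 FPKM against 32.8 to 56.9 (median 34.2). Nnat rose 4.14-fold, and Gnas was the member that fell, with a log2 fold change of -0.73 that became 0.27 under TPM scaling.

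Of 18 secreted factors of muscle 7 were higher and 7 lower (38.9% each, near the shares over all genes). Mstn, myostatin, which limits muscle growth, fell from 4.02, 10.4, 6.68 and 14.1 FPKM to 0.746 to 2.79 (median 1.71). Fst, follistatin, which binds and blocks myostatin, rose from 0.791 to 1.14 FPKM to 9.61 to 21.1 (median 15.3). Fndc5, the precursor of irisin, fell 2.92-fold and stayed lower under TPM scaling, whereas Il15, which fell 2.52-fold as deposited, was not called there (log2 -0.39, limma adjusted p = 0.178). Ostn, musclin, rose 3.09-fold. Notch pathway genes gave 9 of 19 higher and 5 lower, with Notch2 rising from 0.667 to 1.09 FPKM to 2.78 to 3.61 (median 3.18). Splicing and RNA-binding genes, with 11 of 36 higher (30.6%) and 9 lower (25%), did not exceed the shares over all genes: Ptbp1, a repressor of muscle exons, rose 2.56-fold, Igf2bp2 2.95-fold and Rbm38 fell 2.41-fold.

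Other cell types were seen through fewer markers. Adipocyte markers rose in 6 of 7 cases, their sum spanning 130 to 214 FPKM in wild-type libraries and 255 to 717 FPKM in mutants, tendon cell markers in 6 of 7, smooth muscle and pericyte markers in 6 of 9 and mast cell markers in all 4 tested. Among endothelial markers 2 of 9 were higher and 2 lower, with sums of 74.2 to 96.6 FPKM in wild-type and 70.7 to 97.8 FPKM in mutant libraries. For lymphocytes the defining genes stayed under the filter: Cd3e, Cd3d and Cd3g averaged at most 0.715 FPKM and Ms4a1 and Cd79a at most 0.132 FPKM in either group. The members that could be tested rose: Cd8a and Cd2 among T cell markers, with log2 fold changes of 1.23 and 0.72, and Jchain among B and plasma cell markers, with 0.87 (limma, adjusted p = 6.16e-05, 0.00276 and 0.000632). The summed T cell markers went from 0.312 to 0.591 FPKM up to 2.01 to 4.33 FPKM, and the B and plasma cell markers from 0.148 to 0.346 up to 0.514 to 2.11 FPKM. Satellite cell markers rose in 4 of 8 cases and fell in 2, and Pax7, the defining marker, was not called, with means of 0.686 FPKM in wild-type and 0.979 FPKM in mutant muscle.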

How the data were processed

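RNA was sequenced from tibialis anterior muscle in 16 libraries, of which 10 form this comparison. The submitters' processing notes name the aligner HISAT2 (2.0.5), the counter featureCounts (1.5.0-p3) and, as genome build, mRatBN7.2. The annotation release, strand setting and treatment of multi-mapping reads are not stated there. The values are FPKM as deposited by the authors, 1 column per library. FPKM times gene length came out as whole reads for 100.0% of values in each library (within 0.05 of a read), and the deposited scaling matched a median-of-ratios scaling of those reads to within 1.58e-09%. Assigned reads and the floor of 3 reads come from this step and cover counting error only.

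Genes reaching 1 FPKM in 4 or more of the 16 libraries were tested with limma 3.58.1 (R 4.3.3; trend and robust) on log2(FPKM + 1), with group means for all 16 libraries and Benjamini-Hochberg adjustment over all 12119 genes. Fold changes are on that scale, which understates changes of low genes. Pair ratios used 0.1 FPKM added to each value and exact two-sided permutation over 210 relabellings. On simulated data with 200 changed genes the fit recovered 79% of log2 changes of 1 and 99% of log2 changes of 2, with 8 false calls. That simulation gave all libraries independent noise of equal spread and no shift in scaling. In these data 65.7% of genes were called, so its number of false calls does not carry over. Other settings (scaling, filters, pseudocount, weights, libraries left out) are in the closing section.

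Genes were named by a rule: Dmd, the 20 largest rises and falls, the 8 largest gains and losses in FPKM, up to 3 risers and 3 fallers per list, the 8 largest ratio changes in each direction, and genes near 0 in 1 group. The rule selects 295 genes, and 148 of them are named, chosen with their values known; some genes and 1 gene pair are not reported here; a few other list members are named beside the counts they belong to. The members and lists were chosen with earlier results of these data known.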

Additional observations from a re-analysis of the deposited data

Results flagged for a closer look

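Among 296 groups of libraries (148 named genes in 2 genotypes), 26 held a single library far from the others of its group by Dixon's test. Chance gives about 1 in 20 such groups when values are continuous. For Sohlh2, Mir142, Snord123, Lrrc15 and Snord87 every other wild-type library was at 0, so any read gave a flag. These genes were picked for having few wild-type reads, and their wild-type flags are not to be set against that rate. WT_ND replicate 9 accounted for 10 of the 26 flagged groups, DMD_ND replicate 9 for 6 and WT_ND replicate 3 for 4.

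WT_ND replicate 9 was the high wild-type library for Mymx (2.51 FPKM), Rrad (34.8), Gpnmb (23.7), Tubb6 (15.1), Runx1 (2.27) and Ampd3 (5.74), 6 genes that were higher in mutants, and each of these values lay below the lowest mutant library. It also held the few wild-type reads of Sohlh2 (0.0255 FPKM), Lrrc15 (0.0335) and Snord123 (1.76), and it was low for Nr4a1 (82.0 FPKM against 165 to 175). WT_ND replicate 3 stood out for Ctxn3 (1.88 FPKM), Mir142 (0.482), Snord87 (0.629) and Dbp, where it was low at 56.5 FPKM, and WT_ND replicate 1 was low for Gpx8 (1.22 FPKM).

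Among mutants, DMD_ND replicate 7 was high for Socs3 (147.0 FPKM against 19.4 to 44.6) and Fgf23 (13.1 against 1.67 to 2.94). DMD_ND replicate 9 was high for Gpx8 (21.9 FPKM), Tuba1b (67.8) and Snord123 (14.4), and low for Scn4a (14.7), Rxra (11.7) and Pink1 (213.0). DMD_ND replicate 11 was high for Gpnmb (266.0 FPKM), replicate 6 for H19 (4466.39) and replicate 3 for Snora64 (2.06).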

How the results depend on the processing

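Of 7967 calls, 3815 were higher and 4152 lower. The split depended on scaling: TPM scaling gave 8575 higher and 721 lower, and an equal sum over nuclear genes 6380 and 1469. With a mean of at least 5 FPKM only 6244 genes were tested, and 4361 were called, 1477 of them higher. Every other setting run kept the counts within 1.5 times, and leaving out 1 library gave 7413 to 7868 calls and 34 to 36 called pairs.

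Named genes that turned above 0 under TPM scaling were Pfn2 (0.49), Flnc (0.4), Ptpn14 (0.03), Gnas (0.27), Ldha (0.1) and Casq1 (0.1); with equal nuclear sums Pfn2 (0.13) and Flnc (0.04) did so. Another 12 named genes, all lower as deposited, kept their sign but were not called under TPM scaling: Crim1, Aldh1l1, Tnnt3, Fech, Unc45b, Dnmt3a, Tln2, Acta1, Smyd1, Il15, Nr4a1 and Chac1 (limma adjusted p between 0.0501 and 0.963). List medians that turned above 0 under TPM scaling included those of mitochondrial ribosomal proteins (0.19), translation factors (0.47), aminoacyl-tRNA synthetases (0.49), proteasome (0.5), ubiquitin ligases and adaptors (0.01), autophagy (0.54), ion channels (0.13), insulin and mTOR signalling (0.48), NAD metabolism (0.38), mitochondrial import (0.05), mitochondrial calcium (0.48), clock (0.08), nuclear receptors (0.13) and muscle transcription factors (0.22). Cytosolic chaperones (0.62), polyamine metabolism (0.54), glutathione and peroxide genes (0.78), limb position genes (0.41), chromatin genes (0.56) and iron and haem genes (0.69) turned too. So did pentose phosphate genes (0.78), secreted factors of muscle (0.4), tubulins and microtubule proteins (0.88), vesicle coats (0.84) and the integrated stress response (0.8). With equal nuclear sums medians turned above 0 at least for translation factors (0.18), synthetases (0.15), proteasome (0.14), autophagy (0.21), insulin and mTOR signalling (0.17), NAD metabolism (0.09) and mitochondrial calcium (0.17). These settings differ from the deposited values only in the scale of each library; which scaling is closer to RNA per fibre was not tested.

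The genotypes share only replicate numbers 3 and 9, whose libraries did not deviate together (r = -0.02 and 0.06). With the replicate block 5852 genes were called, 3079 higher and 2773 lower, and 7 of the 148 named genes (Prkaa1, Acta1, Casq1, Ldha, Gnas, Pfn2 and Cish) were not called (limma adjusted p between 0.0544 and 0.321). The planned edgeR and DESeq2 fits were not run, since the deposited values are FPKM; limma voom on the recovered reads, chosen after seeing the data, called 7802 genes.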
